A study of Mus musculus with 24 samples.

Results

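Complex I of the respiratory chain (NADH:ubiquinone oxidoreductase) was followed through its genes in 3 subsets of splenic regulatory T (Treg) cells. The genes were every row of the expression table whose symbol starts with *Nduf* or *mt-Nd*, which gave 59 of the 17464 listed genes. By role, 7 are nuclear core subunits (*Ndufv1* and *Ndufs1* among them), 7 are core subunits encoded in mitochondrial DNA, 30 are accessory subunits and 8 are assembly factors (*Ndufaf* genes). The other members are 6 pseudogenes or processed copies, and *Ndufa4*, which carries the family name but is counted today among the subunits of complex IV. Of the 59, 58 reached a normalized count of at least 10 in at least 4 libraries and were tested, and *mt-Nd4l* did not. *Ndufa11b*, *Ndufa4l2* and *Ndufb11b* were not analysed here.

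The study compared resting Treg cells (rTreg, sorted as CD44-), activated Treg cells (aTreg, CD44+) and KLRG1+ Treg cells (kTreg) by bulk RNA-seq. KLRG1 binds cadherins and dampens lymphocyte signalling. Cells came from the spleens of 4 young (2 months) and 4 old (26 months) untreated wild-type mice (WT C57BL/6JRccHsd), which gave 24 libraries in 6 groups of 4. All groups share strain, genotype, tissue and treatment, and no transgene or deletion is involved. The study used mice of both sexes, and libraries numbered alike within an age are treated here as 1 mouse, which the labels do not state.

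Complex I passes electrons from NADH to ubiquinone and pumps protons across the inner mitochondrial membrane. Its core subunits, which are conserved from bacteria, hold the flavin, the iron-sulfur clusters, the quinone site and the proton channels, and they are split between the nuclear and the mitochondrial genome. The accessory subunits surround this core, and the assembly factors help to build the modules but are absent from the finished enzyme. In T cells the respiratory chain is known for its part in activation and memory, and Treg cells are known to rely on oxidative metabolism.

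The deposited values are read counts divided by 1 size factor per library, called normalized counts here, and all fold changes are on the log2(normalized count + 1) scale. Per kilobase of canonical transcript, the median level over the 24 libraries was highest in the mitochondrially encoded class (class median 4109), where it ran from 16.5 for *mt-Nd4l* to 15333 for *mt-Nd1*. It was between 798 (*Ndufs1*) and 3508 (*Ndufs7*) for the nuclear core subunits and between 147 (*Ndufb2*) and 4307 (*Ndufa1*) for the accessory subunits. The assembly factors were lower, from 136 for *Ndufaf5* to 626 for *Ndufaf8* per kilobase. No assembly factor reached the level of the lowest nuclear core subunit. These levels rest on 1 canonical transcript per gene, 4389 bases for *Ndufb2* and 4780 for *Ndufaf1*, and would differ with another transcript.

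The libraries held 15045747 to 29521942 reads each. *Klrg1* was 16559 to 41561 in kTreg libraries and at most 357 elsewhere, and *Foxp3*, the defining Treg factor, was at least 5079 in every library (median 24763). RNA of other cell types was present unevenly. The summed monocyte and macrophage markers (*Lyz2*, *Csf1r*, *Cd68* and *Adgre1*) were 10017 to 26172 in old rTreg libraries, 0 to 19520 in young kTreg, 1889.6 to 2794 in old kTreg and 221 to 322 in old aTreg libraries, and the summed plasma cell markers (*Jchain*, *Mzb1* and *Sdc1*) were 3170 to 9383 in old rTreg libraries and at most 1972 elsewhere. The value of 19520 is that of young kTreg 2, and the other young kTreg libraries held at most 813. The summed B cell markers were 15061 in young rTreg 2, 8205 in young aTreg 2 and 6651 in young kTreg 2. They were at most 2064 elsewhere. Neutrophil markers summed to 8806 in old rTreg 3, the highest value. In young kTreg 4, 4913 listed genes were at 0, against 419 to 2756 in the other libraries. Their part in the results was not tested, beyond fits without each library.

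Complex I genes also followed a property of the libraries that involves transcript length. In each library the median log2 deviation from the mean of all libraries was taken over short transcripts (up to 1216 bases, 3299 genes) and over long ones (from 4962 bases, 3297 genes), leaving out the members, and the difference is called the length skew. The 45 nuclear subunits and assembly factors have a median transcript length of 1252 bases. Over the 24 libraries their median deviation followed the length skew with Pearson's r = 0.977 and Spearman's rho = 0.950, with r = 0.963 without the 2 libraries farthest from the median skew and r = 0.976 within groups. These libraries share subset, mouse and preparation, so the coefficients are a description. The class values were 0.966 for accessory subunits, 0.940 for nuclear core subunits, 0.925 for assembly factors and 0.682 for mitochondrially encoded subunits. Members with long canonical transcripts were found at both ends. *Ndufb9* (4197 bases, r = 0.94) and *Ndufs4* (4047 bases, r = 0.93) followed the skew closely, and *Ndufaf1* (4780 bases, r = 0.14) did not. The short *mt-Nd3* (348 bases) had r = 0.56 and *Ndufa6* (590 bases) r = 0.96. Whether a member's own length goes with its r was not tested.

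**Figure D1:**
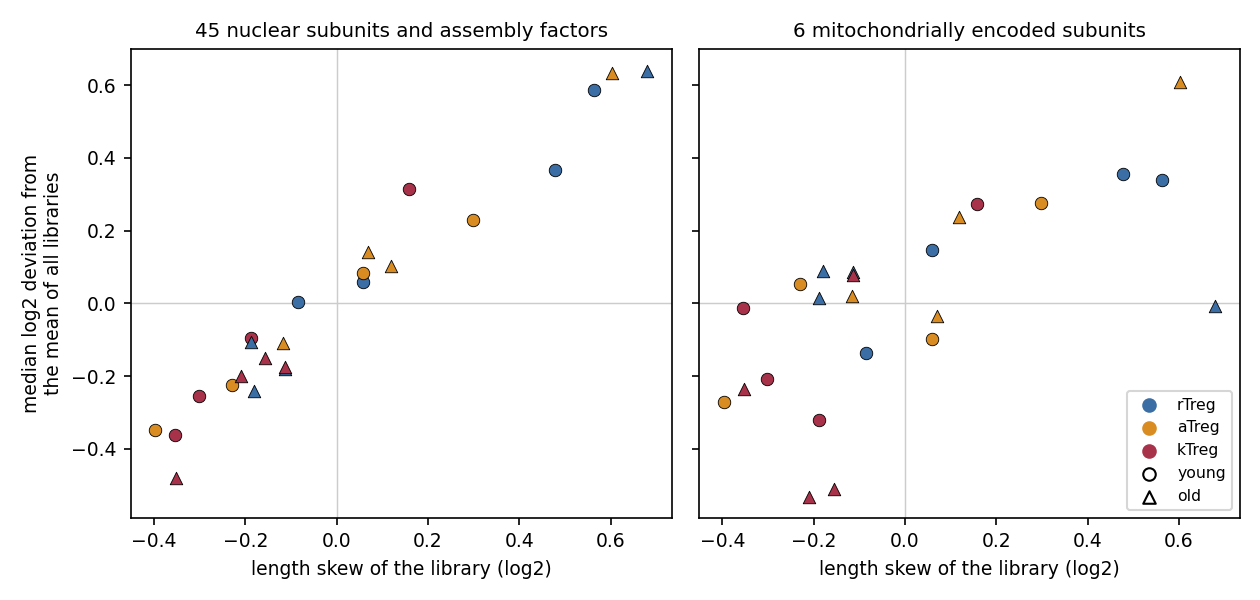
Each point is 1 of 24 libraries, the x axis is the length skew (log2, short minus long transcripts) and the y axis the median log2 deviation of the complex I genes from the mean of all libraries, with colour for subset and shape for age. The nuclear genes (left) lie close to a line, with old rTreg 3 at a skew of 0.68 and the 4 old kTreg libraries between −0.35 and −0.11, while the mitochondrially encoded subunits (right) scatter more.

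The length skew was unevenly spread over the groups. Its highest values were 0.68 in old rTreg 3, 0.60 in old aTreg 2, 0.56 in young rTreg 3 and 0.48 in young rTreg 1, and its medians were 0.27 in young rTreg, 0.09 in old aTreg, −0.09 in young aTreg, −0.15 in old rTreg, −0.18 in old kTreg and −0.25 in young kTreg libraries. Members differed in how closely they followed it. *Ndufa6* had r = 0.96, *Ndufaf4* 0.70, *Ndufa10* 0.72, *Ndufaf6* 0.61 and *Ndufv1* 0.42, and *Ndufs1* went the other way with r = −0.46. For this reason each result is given from the 6-group fit and, where it differs, from the same fit with the length skew as a covariate, an alternative added after the data were seen.

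Between kTreg and aTreg cells, which differ in the surface marker KLRG1, 6 of the 58 members tested (10.3%) were lower in kTreg cells over both ages and none was higher. Among all 16630 genes tested, 6.0% were lower and 6.06% higher. The members that fell were the assembly factors *Ndufaf4* and *Ndufaf6*, the accessory subunits *Ndufa9*, *Ndufa10* and *Ndufb6*, and *Ndufa12-ps*. The median log2 fold change of the members was −0.28 and 56 of 58 lay below 0, beside a median of −0.08 over all genes tested. The members' median was −0.06 with the length skew as a covariate (−0.09 over all genes), and 37 of 58 lay below 0. Between 2 and 16 members passed when 1 library or mouse was left out, with 16 without young kTreg 4. In sorted bulk cells, fewer cells with a transcript and less of it per cell cannot be told apart.

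*Ndufaf4*, a partner of *Ndufaf3* that acts early in building the arm that holds the quinone site, lies at chr4:24898079-24905001 in GRCm39. Its normalized counts in the 4 young mice were 736, 482, 966 and 608 in rTreg, 749, 650.1, 760.4 and 647 in aTreg, and 404, 362, 458 and 482 in kTreg libraries. In old mice they were 595, 473, 641 and 572 in rTreg, 800.4, 1002, 599 and 656 in aTreg, and 495, 445, 488 and 612 in kTreg libraries. Every young kTreg library was below every young aTreg library, the old groups overlapped, and within the mouse the kTreg value was the lower in 8 of 8 mice. *Ndufaf4* was 1.56-fold lower in kTreg than in aTreg cells over both ages (log2 fold change −0.64 ± 0.14 (SE), adjusted p = 0.00301). In young mice the log2 fold change was −0.72 ± 0.19 (SE, adjusted p = 0.0225), and in old mice −0.56 ± 0.19 (SE, adjusted p = 0.136). With the length skew as a covariate it was −0.49 over both ages (adjusted p = 0.00434), and the call held in all 43 alternative fits.

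**Figure D2:**
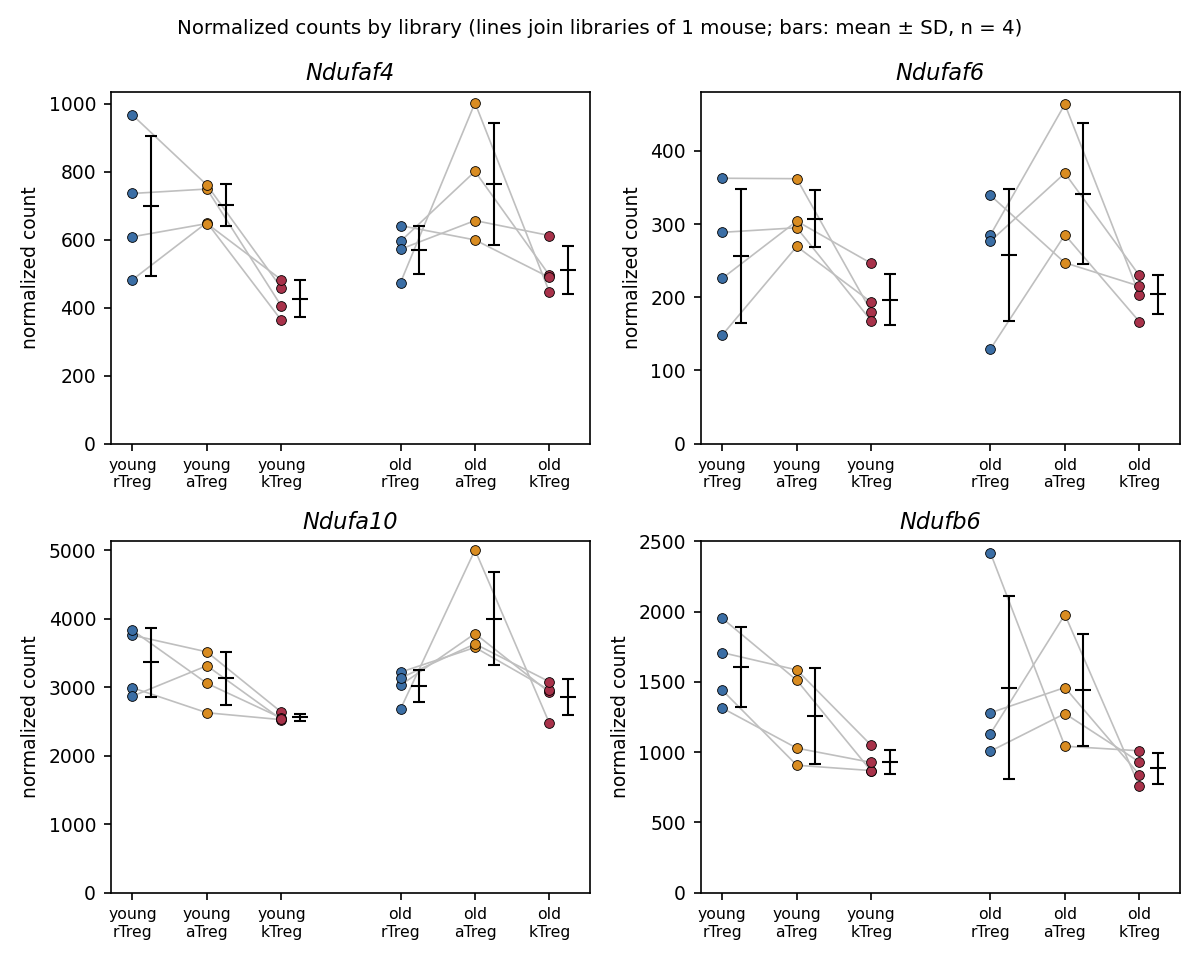
Normalized counts (y axis, from 0) of *Ndufaf4*, *Ndufaf6*, *Ndufa10* and *Ndufb6* in each library by group (x axis), with grey lines joining the 3 libraries of 1 mouse and black bars for the mean ± SD of 4 libraries. Young kTreg libraries lie below all young aTreg libraries for *Ndufaf4* (362 to 482 against 647 to 760).

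*Ndufaf6*, which is needed early for the part around *mt-Nd1*, had the largest change between kTreg and aTreg cells among the members. Its normalized counts were 362, 269, 295 and 304 in young aTreg and 180.5, 193, 168 and 246 in young kTreg libraries. In old mice they were 285, 464, 247 and 369.6 in aTreg and 167, 204, 215 and 229.7 in kTreg libraries. The ranges did not overlap at either age and kTreg was lower in 8 of 8 mice (log2 fold change −0.68 ± 0.21 (SE), adjusted p = 0.0337). The log2 fold change with the length skew as a covariate was −0.47 and the call was lost (adjusted p = 0.0935), as it was in 16 of 43 alternative fits in all. Against rTreg cells, whose values ran from 129 to 363, *Ndufaf6* did not pass (−0.29, adjusted p = 0.342).

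The other assembly factors did not pass between kTreg and aTreg cells over both ages. *Ndufaf8*, the partner of *Ndufaf5*, had the smallest p of these (−0.38, adjusted p = 0.122), and *Ndufaf2*, a relative of *Ndufa12* that acts late in assembly, lay on the same side (−0.37, adjusted p = 0.265). *Ndufaf3* was at 875 ± 164 (SD, n = 4) in young aTreg and 818 ± 127 in young kTreg libraries (−0.20, adjusted p = 0.379), so it did not follow its partner *Ndufaf4* past the threshold. *Ndufaf1*, *Ndufaf5*, which modifies an arginine of *Ndufs7*, and *Ndufaf7*, a methyltransferase, had differences near 0 (log2 −0.01, −0.06 and 0.01) with standard errors of 0.19, 0.23 and 0.10. In kTreg against rTreg cells, of the 8 assembly factors only *Ndufaf4* passed (−0.42, adjusted p = 0.0307), and with the length skew as a covariate it did not (adjusted p = 0.244). *Ndufaf8* (−0.39, adjusted p = 0.0734), *Ndufaf3* (−0.24, adjusted p = 0.214), *Ndufaf2* (−0.18, adjusted p = 0.555) and *Ndufaf7* (−0.08, adjusted p = 0.632) lay below 0. *Ndufaf1* (0.43, adjusted p = 0.106) and *Ndufaf5* (0.14, adjusted p = 0.71) lay above it.

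Over the 24 libraries, the members whose log2 values were most like those of *Ndufaf4* were *Ndufa10* (Pearson's r = 0.849), *Ndufa9* (0.807), *Ndufb4* (0.785), *Ndufa5* (0.780) and *Ndufv2* (0.736). These libraries share the length skew, which members follow to different degrees, so the order is a description. The start regions of *Ndufaf4* and of 3 subunits (*Ndufa10*, *Ndufa9* and *Ndufb6*) are shown because these genes passed between kTreg and aTreg cells over both ages. *Ndufaf6*, which also passed, had no matched sequence. The regions are RefSeq sequences on GRCm38.p6, from 250 bases before to 50 bases after the transcription start, printed 5′ to 3′ on the gene's strand. They lie at chr4:24897833-24898132 (plus strand), chr1:92473709-92474008, chr6:126849095-126849394 and chr4:40279372-40279671 (minus strand). Capitals mark the letters searched for.
Ndufaf4: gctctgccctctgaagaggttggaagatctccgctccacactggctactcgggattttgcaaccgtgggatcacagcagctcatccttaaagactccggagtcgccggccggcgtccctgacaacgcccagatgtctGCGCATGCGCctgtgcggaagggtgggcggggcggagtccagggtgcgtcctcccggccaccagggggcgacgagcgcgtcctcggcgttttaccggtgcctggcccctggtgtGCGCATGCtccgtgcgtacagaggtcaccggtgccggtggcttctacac
Ndufa10: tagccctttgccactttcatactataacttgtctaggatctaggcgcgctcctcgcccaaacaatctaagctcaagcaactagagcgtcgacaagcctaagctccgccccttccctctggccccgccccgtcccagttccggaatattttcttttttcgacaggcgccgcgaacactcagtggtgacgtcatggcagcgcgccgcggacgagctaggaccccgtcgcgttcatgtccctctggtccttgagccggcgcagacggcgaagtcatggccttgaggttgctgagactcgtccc
Ndufa9: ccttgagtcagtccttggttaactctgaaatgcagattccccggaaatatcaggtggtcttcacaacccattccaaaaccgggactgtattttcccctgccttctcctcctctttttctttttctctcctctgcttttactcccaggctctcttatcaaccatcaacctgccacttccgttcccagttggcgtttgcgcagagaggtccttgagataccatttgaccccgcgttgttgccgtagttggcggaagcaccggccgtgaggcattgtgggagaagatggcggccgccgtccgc
Ndufb6: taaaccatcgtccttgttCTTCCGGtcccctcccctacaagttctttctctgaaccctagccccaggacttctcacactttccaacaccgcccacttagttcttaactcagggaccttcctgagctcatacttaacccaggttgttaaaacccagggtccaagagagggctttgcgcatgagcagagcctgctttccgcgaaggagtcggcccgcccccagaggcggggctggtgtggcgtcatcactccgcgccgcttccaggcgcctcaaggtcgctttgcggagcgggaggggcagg
The motifs were searched on both strands. Shares over all are counted by promoter and members by gene, and the 42 members with a sequence have 44 promoters. The 2 kinds of count are therefore not on the same unit. The core of the nuclear respiratory factor 1 (NRF1) motif, GCATGCGC, was in 2.71% of 32851 promoters and in 5 of the 42 members with a sequence (*Ndufa11*, *Ndufa6*, *Ndufa8*, *Ndufaf4* and *Ndufaf5*). *Ndufaf4* has 3 matches, of which 2 overlap in 1 run of capitals. The ETS motif CCGGAAG was in 8.86% of all promoters and in 6 members, *Ndufb6* among them. The E-box CACGTG was in 7.15% of all and in 2 members, *Ndufa7* and *Ndufv1*. A match is only a stretch of letters, and the windows of *Ndufa10* and *Ndufa9* hold none of them.

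Among the accessory subunits, *Ndufa10*, which sits on the membrane arm and resembles nucleoside kinases, had the smallest p between kTreg and aTreg cells. Its normalized counts in young mice were 3759, 2992, 3831 and 2869.6 in rTreg, 3516, 2628, 3057 and 3314 in aTreg, and 2636, 2526, 2550.1 and 2531 in kTreg libraries. In old mice they were 3029, 2682, 3219.9 and 3134 in rTreg, 3783, 5004, 3581 and 3632 in aTreg, and 2924, 2472, 2958 and 3079.8 in kTreg libraries. The old aTreg libraries were above all old rTreg and all old kTreg libraries, whereas in young mice the aTreg and kTreg ranges overlapped only by the lowest aTreg library, and kTreg was below aTreg in 8 of 8 mice. *Ndufa10* fell 1.3-fold over both ages (log2 fold change −0.38 ± 0.09 (SE), adjusted p = 0.00551), with −0.28 when the length skew was a covariate (adjusted p = 0.00693). The call held in all 43 alternative fits and is lost when a fold change above 1.5 is required as well. In old mice alone it was the only member of the 58 that passed (−0.48, adjusted p = 0.0402), beside 1.03% of all genes lower and 1.42% higher, and with the mouse as a replicate block none passed there.

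*Ndufb6*, a small subunit of the far membrane arm, was 1585, 907, 1512 and 1029 in young aTreg and 1049, 869, 865 and 927 in young kTreg libraries. In old mice its normalized counts were 1275, 1979, 1043 and 1460.1 in aTreg and 930.5, 759, 1010.1 and 840.2 in kTreg libraries. The old groups did not overlap and kTreg was lower in 8 of 8 mice (log2 fold change −0.54 ± 0.17 (SE), adjusted p = 0.0396). *Ndufa9*, which stabilizes the junction of the arms, was lower in 8 of 8 mice (log2 fold change −0.31 ± 0.09 (SE), adjusted p = 0.0343). When the length skew was a covariate *Ndufb6* passed (−0.28, adjusted p = 0.0492) and *Ndufa9* did not (−0.19, adjusted p = 0.0663). The call was lost in 15 of 43 alternative fits for *Ndufb6* and in 15 for *Ndufa9*. No core subunit of either genome passed between kTreg and aTreg cells over both ages. The nearest was *Ndufv1*, which binds NADH and the flavin (−0.28, adjusted p = 0.0559).

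Against rTreg cells, 11 of 58 members (19.0%) were lower in kTreg cells over both ages and none was higher, beside 10.3% lower and 12.5% higher among all genes. The median was −0.34 and 56 of 58 lay below 0, while the median over all genes was −0.01. With the length skew as a covariate the members' median was −0.03 and 33 of 58 lay below 0. When 1 library or mouse was left out 2 to 33 passed, with 33 without young mouse 4 and 25 without young kTreg 4. The members lower were 3 nuclear core subunits, 5 accessory subunits, *Ndufaf4* and 2 pseudogenes.

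*Ndufv1* had the smallest p in this comparison. Its normalized counts in young mice were 3461, 3339, 3399.9 and 3158 in rTreg and 2606, 2403, 2782 and 1489 in kTreg libraries. In old mice they were 3088, 3037, 3601 and 3001 in rTreg and 2774, 2589, 2645 and 2502 in kTreg libraries. The groups did not overlap at either age, kTreg was lower in 8 of 8 mice, and the gene was 1.34-fold lower (log2 fold change −0.42 ± 0.10 (SE), adjusted p = 0.00253). This call held in all 43 alternative fits but not with a fold change above 1.5 required as well, and with the length skew as a covariate the log2 fold change was −0.40 (adjusted p = 0.0109). The lowest library, young kTreg 4 at 1489, is the one with the most genes at 0.

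*Ndufb6* was 1708, 1441, 1952 and 1314 in young rTreg and 1007, 1131, 2418 and 1280.4 in old rTreg libraries, and the old rTreg and old kTreg ranges met only at old rTreg 1 and old kTreg 3. It was lower in kTreg than in rTreg cells in 8 of 8 mice (log2 fold change −0.71 ± 0.17 (SE), adjusted p = 0.00362), and it kept its call in all 43 alternative fits. The core subunit *Ndufv2*, which carries an iron-sulfur cluster beside *Ndufv1*, was lower by a smaller step (−0.36, adjusted p = 0.0323). The accessory subunits *Ndufa9* (−0.30, adjusted p = 0.0246), *Ndufs4* (−0.37, adjusted p = 0.0373), *Ndufa6* (−0.51, adjusted p = 0.0415) and *Ndufb4* (−0.54, adjusted p = 0.0453) were lower as well. *Ndufs4* is known as a subunit added late to the NADH-binding module, and *Ndufa6* as a partner of the acyl carrier *Ndufab1*. None of these 5 passed with the length skew as a covariate, where the log2 fold changes were −0.10, −0.13, −0.10, −0.10 and −0.16, in that order.

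**Figure D3:**
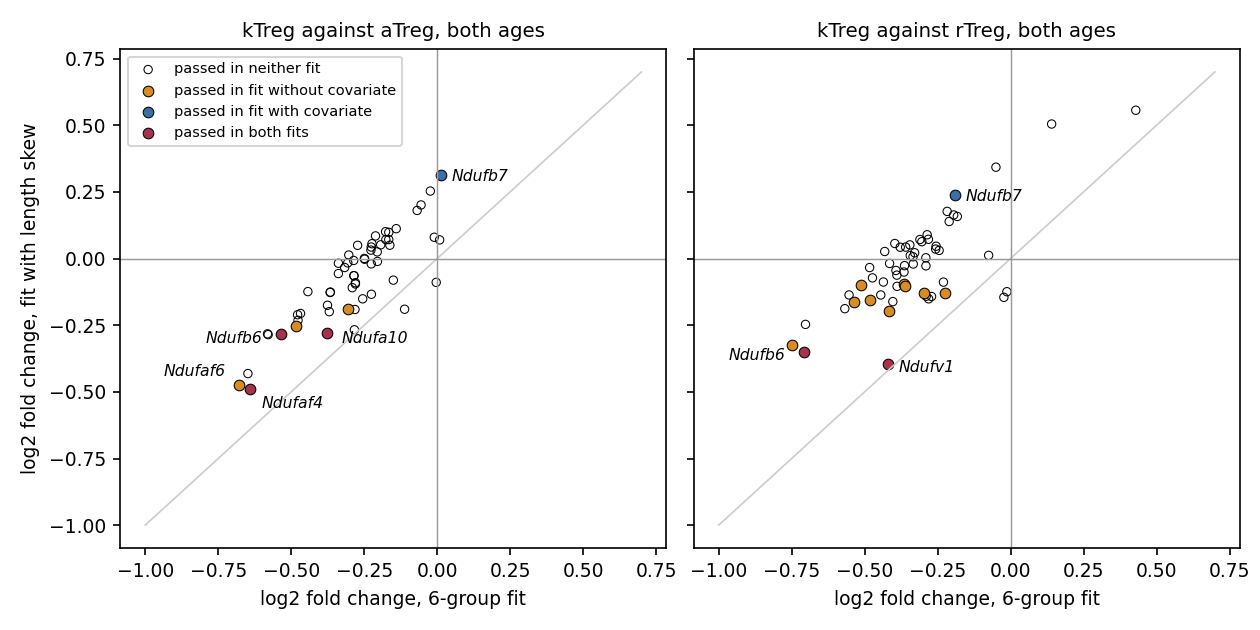
Each point is 1 of 58 members, the x axis is the log2 fold change in the 6-group fit and the y axis that in the fit with the length skew as a covariate, for kTreg against aTreg (left) and against rTreg (right) over both ages, with the diagonal in grey. Most points lie above the diagonal near 0 on the y axis, and *Ndufaf4*, *Ndufa10* and *Ndufb6* (left) and *Ndufb6* and *Ndufv1* (right) passed in both fits.

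With this covariate, 1 member rose in kTreg cells over both ages. *Ndufb7*, a subunit of the far membrane arm that was named after its values were seen, had log2 fold changes of 0.31 against aTreg (adjusted p = 0.00722) and 0.24 against rTreg cells (adjusted p = 0.0388). In the 6-group fit its values were 0.01 and −0.19, and neither passed. Its normalized count was 4536 in young kTreg 4, against 2051 to 2464 in the other young kTreg libraries.

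Within each age fewer members passed. In young mice 1 of 58 passed against aTreg cells (*Ndufaf4*, lower), beside 4.27% of all genes lower and 4.11% higher. The members' median there was −0.08, and that over all genes −0.12. Against young rTreg cells 6 members were lower, beside 9.33% lower and 9.48% higher over all genes, with a median of −0.36 against −0.14. This is 10.3% of the members. They were *Ndufv1* (−0.56), *Ndufaf4* (−0.67), *Ndufb6* (−0.78), *Ndufs4* (−0.55), *Ndufa9* (−0.40) and *Ndufa10* (−0.38). In the fit with the length skew the median was 0.02, *Ndufv1* alone of these passed (−0.54, adjusted p = 0.0132), and *Ndufa4* and *Ndufb7* were higher. In old mice the members' median against aTreg cells was −0.46 and 58 of 58 lay below 0, where the median of all genes was 0.01. Of these members 30 had an unadjusted p under 0.05, beside 1416 of 16630 genes lower and 1267 higher. Once the length skew was a covariate, 47 of 58 lay below 0 with a median of −0.14. None passed in that fit, beside 99 genes lower and 116 higher. The summed monocyte and macrophage markers were higher in every old kTreg library (1889.6 to 2794) than in the old aTreg libraries (221 to 322), and their part in this result was not tested. Single libraries stood apart in the median log2 deviation of nuclear complex I genes. It was 0.63 in old aTreg 2 (−0.11 to 0.14 in the others of its group) and −0.48 in old kTreg 2 (−0.20 to −0.15). In young kTreg 4 it was 0.32 (−0.36 to −0.10 in the other young kTreg libraries). The members' medians at each age without these libraries are not given here. Against old rTreg cells none passed in either direction, beside 10.2% of all genes. At an unadjusted p under 0.05, 4 members were lower and 1 higher, beside 1554 genes lower and 2573 higher. On the recovered reads, edgeR's quasi-likelihood test passed 0 there and DESeq2 passed 1.

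**Figure D4:**
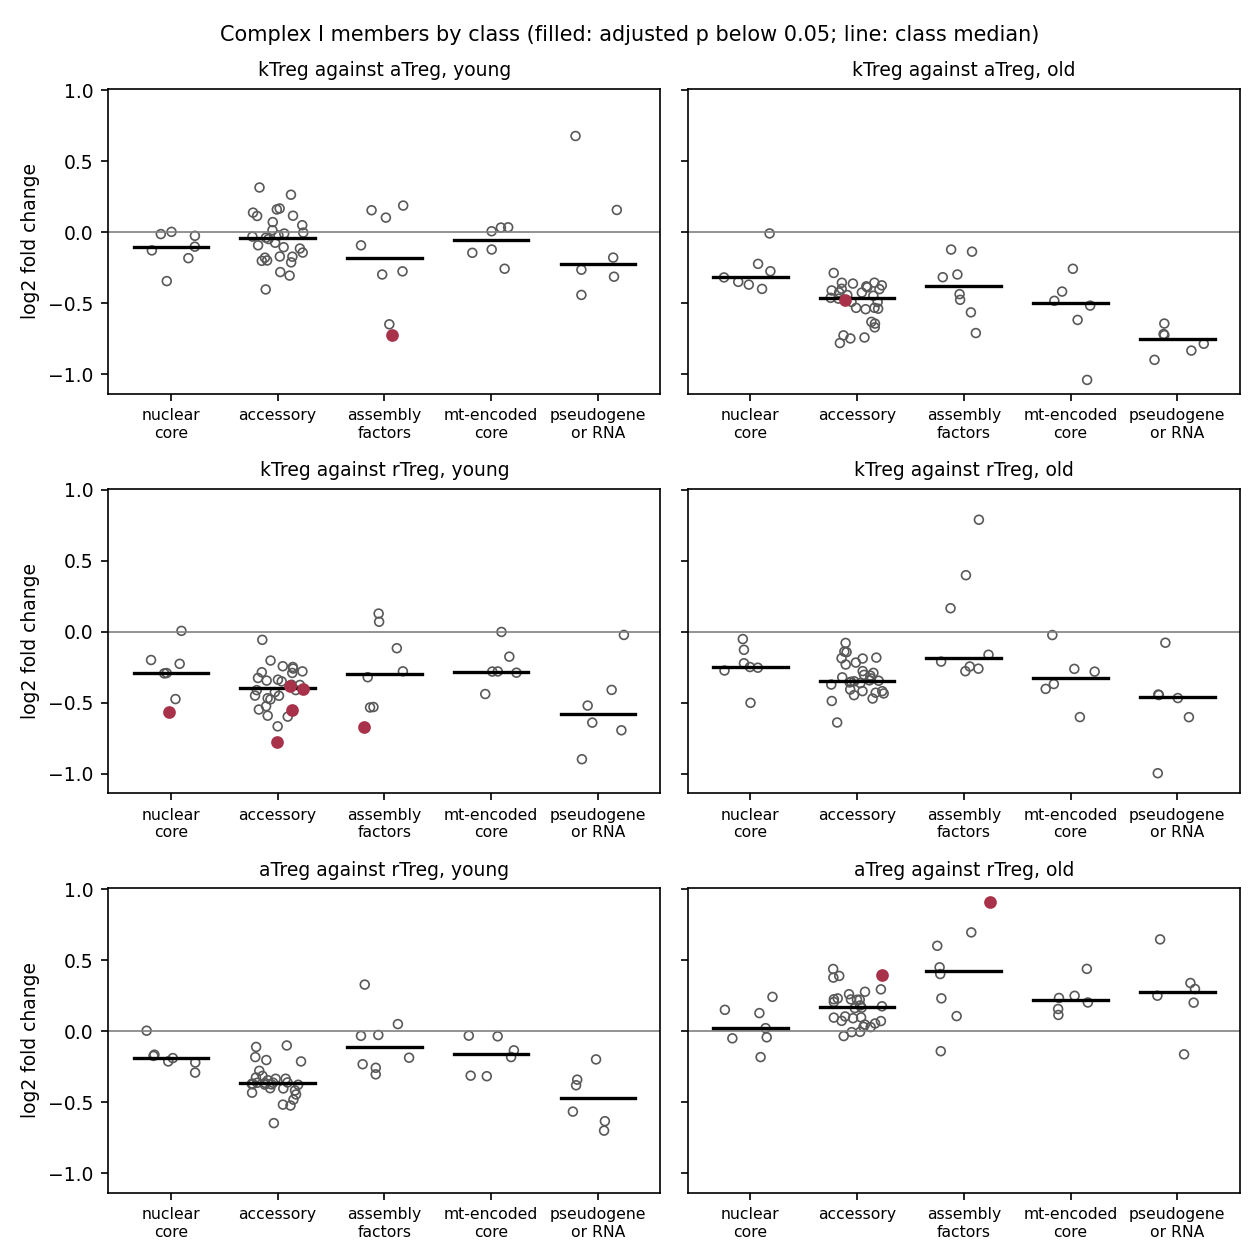
Log2 fold changes (y axis) of the members in 5 classes (x axis) for each pair of subsets in young (left) and old (right) mice, 1 point per gene, filled where the adjusted p was below 0.05, with the class median as a line. In old kTreg against old aTreg cells all points lie below 0, and in aTreg against rTreg cells the medians of all classes are below 0 in young and above 0 in old mice.

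Between aTreg and rTreg cells no member passed over both ages, beside 10.5% of all genes. There 1 member had an unadjusted p under 0.05, beside 2272 of 16630 genes higher and 1347 lower. edgeR and DESeq2 also passed 0. In young mice none passed, beside 3.84% of all genes, and the same tools passed 0. At an unadjusted p under 0.05, 3 members were lower, beside 910 genes lower and 1339 higher. In old mice *Ndufa10* and *Ndufaf1* were higher in aTreg than in rTreg cells, beside 5.73% of all genes higher and 4.34% lower. *Ndufaf1*, a factor of the membrane arm that works with *Acad9*, *Ecsit* and *Tmem126b*, was 726, 705, 360.1 and 335 in old rTreg and 905, 1053, 855 and 947 in old aTreg libraries, with no overlap (log2 fold change 0.91 ± 0.26 (SE), adjusted p = 0.0309). *Ndufa10* rose 1.32-fold (log2 fold change 0.40 ± 0.12 (SE), adjusted p = 0.0414). The 2 lowest old rTreg values of *Ndufaf1* are those of replicates 3 and 4. Both genes passed with the length skew as a covariate, and in that fit *Ndufaf1* was also higher in old kTreg than in old rTreg cells (0.88, adjusted p = 0.0381), and *Ndufa10* was higher in aTreg than in rTreg cells over both ages (0.19, adjusted p = 0.0475). With the mouse as a replicate block 1 of the 2 passed, and edgeR passed 1. The call was lost in 10 of 43 alternative fits for *Ndufaf1* and in 17 for *Ndufa10*. The old rTreg libraries are those with the highest monocyte, macrophage and plasma cell markers, whose part in this result was not tested.

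The members' median in aTreg against rTreg cells was −0.32 in young mice, where 55 of 58 lay below 0, and 0.20 in old mice, where 50 lay above 0. The difference between the ages was tested as an interaction, in which no member passed, beside 1.58% of all genes at the adjusted threshold. At an unadjusted p under 0.05, 12 members were higher, beside 1360 of 16630 genes higher and 1274 lower. *Ndufaf5* and *mt-Nd6* were lower in aTreg than in rTreg cells in all 4 young mice and higher in all 4 old mice, a pattern met by 1.42% of all genes. The interactions of age with kTreg against aTreg and with kTreg against rTreg also passed no member, beside 0.156% and 3.05% of all genes. For kTreg against aTreg, 5 members had an unadjusted p under 0.05, beside 823 of 16630 genes higher and 740 lower. For kTreg against rTreg 0 did, beside 1688 genes higher and 1180 lower. edgeR and DESeq2 passed 0 members in each of the 3 interactions. In the fit with the length skew *Ndufb7* passed in the interaction of age with kTreg against rTreg (−0.47, adjusted p = 0.0494).

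Old and young mice did not differ past the threshold in any member within a subset. The shares of all genes that passed were 6.7% in rTreg, 3.05% in aTreg and 1.32% in kTreg cells. The members' medians were −0.25 in rTreg, 0.21 in aTreg and −0.16 in kTreg cells, beside −0.08, 0.01 and 0.12 over all genes. At an unadjusted p under 0.05 there were 6 members lower in old rTreg, 3 higher in old aTreg and 2 lower in old kTreg cells. Over all 16630 genes tested, 1823 were lower in old rTreg, 1258 higher in old aTreg and 778 lower in old kTreg cells. DESeq2 passed 1 member, in rTreg cells, and edgeR passed 0. The smallest p in rTreg cells was that of *Ndufaf1*, at 869.6 ± 134 (SD, n = 4) in young and 531 ± 213 in old libraries (log2 fold change −0.79 ± 0.26 (SE), adjusted p = 0.0738). In the fit with the length skew the medians were −0.06, 0.01 and −0.12, and *Ndufb3* was lower in old rTreg (−0.33, adjusted p = 0.0315) and *Ndufc1* (−0.51, adjusted p = 0.0108) and *Ndufa4* (−0.35, adjusted p = 0.0211) in old kTreg cells. These accessory and complex IV subunits were named after their values were seen.

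The mitochondrially encoded subunits are read from both strands of chrM. *mt-Nd1* holds part of the quinone site, *mt-Nd2*, *mt-Nd4* and *mt-Nd5* are the antiporter-like proton channels, and *mt-Nd3*, *mt-Nd4l* and *mt-Nd6* are small membrane subunits. Some of these genes overlap. The windows show the GRCm39 bases around each overlap, on the plus strand, with the shared bases in capitals, because reads there belong to both genes. *mt-Nd4l* and *mt-Nd4* share 7 bases (chrM:10167-10173), and *mt-Nd5* and *mt-Nd6* share 14 on opposite strands (chrM:13552-13565).
mt-Nd4l and mt-Nd4: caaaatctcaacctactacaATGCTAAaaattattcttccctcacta
mt-Nd5 and mt-Nd6: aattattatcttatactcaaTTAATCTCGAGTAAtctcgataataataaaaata
How reads on shared bases, or on the opposite strand, were counted is not given in the sources used here, so the counts of these 4 genes are uncertain to that extent.

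*mt-Nd1* had the highest count and *mt-Nd4l* the lowest. Over all libraries *mt-Nd1* had 356367 reads, *mt-Nd3* 1277 and *mt-Nd4l* 111. Whether these gaps reflect amounts of RNA or the way reads were counted was not tested. The normalized counts of *mt-Nd1* ran from 9415 to 24388, those of *mt-Nd5* from 3837 to 9458, those of *mt-Nd4* from 4630 to 9032 and those of *mt-Nd2* from 2906 to 7727. *mt-Nd6* ran from 635 to 1494, *mt-Nd3* from 19.9 to 143 and *mt-Nd4l* from 0 to 8.91. The mt-Nd genes took 0.118% to 0.232% of the reads on listed genes, and 28.9% to 37.5% of the reads on mitochondrial protein genes. Group means of that second share were 36.3% ± 1.35 (SD, n = 4) in young rTreg, 33.7% ± 2.84 in young aTreg, 32.1% ± 3.21 in young kTreg, 33.6% ± 3.10 in old rTreg, 33.6% ± 0.842 in old aTreg and 31.6% ± 0.972 in old kTreg libraries.

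**Figure D5:**
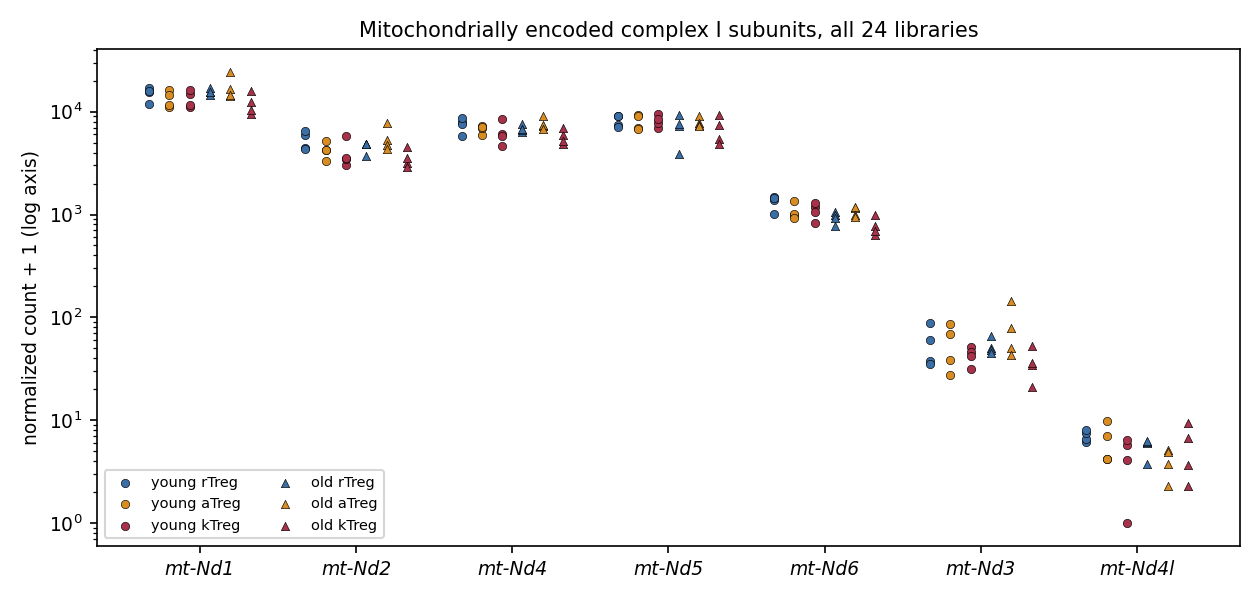
Normalized counts plus 1 (log axis) of the 7 mitochondrially encoded subunits in all 24 libraries, with 1 column of 4 points per group, colour for subset and shape for age. *mt-Nd1* is highest in every library, *mt-Nd3* lies between 19.9 and 143 and *mt-Nd4l* does not exceed 8.91.

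None of the 6 that were tested passed in any comparison of subsets or ages. At an unadjusted p under 0.05, 2 were lower in kTreg than in aTreg cells over both ages and 4 against rTreg cells. Over all 16630 genes tested, 2250 and 2718 were lower at that threshold. edgeR passed 0 in every comparison, and DESeq2 passed 1 member of the class in each of 3 comparisons, which are not named here. Of all 17464 genes, DESeq2 passed 290 to 2375 higher and 220 to 2039 lower, depending on the subsets or ages compared. Between kTreg and aTreg cells over both ages all 6 lay below 0 with a median of −0.27, and with the length skew as a covariate all 6 still did, with a median of −0.19. *mt-Nd4* had the smallest p (log2 fold change −0.28 ± 0.11 (SE), adjusted p = 0.0971). Against rTreg cells *mt-Nd2* was closest to the threshold (log2 fold change −0.40 ± 0.15 (SE), adjusted p = 0.0504), and it passed in 14 of 43 alternative fits, with means of 5270.5 ± 1087 (SD, n = 4) in young rTreg and 3949 ± 1218 in young kTreg libraries. *mt-Nd1* (−0.29, adjusted p = 0.114), *mt-Nd3* (−0.44, adjusted p = 0.349) and *mt-Nd6* (−0.28, adjusted p = 0.106) lay on the same side, and *mt-Nd5* was near 0 (−0.01 ± 0.15). *mt-Nd6*, the only one of these genes on the minus strand, had means of 1328 ± 223 (SD, n = 4) in young and 930.0 ± 118 in old rTreg libraries (−0.50, adjusted p = 0.0814), and of 1095 ± 204 in young and 772 ± 157 in old kTreg libraries (−0.51, adjusted p = 0.164). The other mitochondrial genes for complexes III to V, 6 in number, had medians of −0.13 between kTreg and aTreg cells and −0.06 against rTreg cells, with none passing.

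The 6 pseudogenes or copies are 96.55% to 100% identical to their parents over the aligned bases, so reads can be split between a copy and its parent and the values of both are uncertain. *Ndufa12-ps* (99.5% identical to *Ndufa12*) fell in kTreg against aTreg cells (−0.48, adjusted p = 0.0498) and against rTreg cells (−0.48, adjusted p = 0.0306). Its parent *Ndufa12* did not pass in either comparison (−0.48, adjusted p = 0.055 and −0.44, adjusted p = 0.0533). *Ndufb4c* (100% identical to *Ndufb4*) fell against rTreg cells (−0.75, adjusted p = 0.0272). None of these calls held with the length skew as a covariate. The call of *Ndufa12-ps* against aTreg cells was lost in 30 of 43 alternative fits, and that against rTreg cells in 12, as was that of *Ndufb4c*. *Ndufa4* did not pass in the 6-group fit (−0.18 against aTreg and −0.22 against rTreg cells over both ages), and in the fit with the length skew it was higher in young kTreg than in young aTreg (0.34, adjusted p = 0.00805) and young rTreg cells (0.32, adjusted p = 0.0143). These genes lie outside the rule for naming and were named after their values were seen.

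The 6-group fit also gave values for genes that share a task with the members. Of 11 assembly factors without an *Nduf* symbol, none passed in kTreg against aTreg cells over both ages. Their median was −0.24, with 10 of 11 below 0. At an unadjusted p under 0.05, 5 of these were lower, beside 2250 of all 16630 genes. *Tmem186* fell in old kTreg against old aTreg cells (log2 fold change −0.56, adjusted p = 0.0316), and *Nubpl*, which inserts iron-sulfur clusters, fell in young kTreg against young rTreg cells (−2.90 ± 0.92 (SE), adjusted p = 0.0303), where 1 of the 4 kTreg libraries, replicate 4, had it at 0. Of 12 genes for the expression of mitochondrial DNA, such as *Tfam* and *Polrmt*, none passed in any comparison of subsets or ages (6-group fit). At most 6 had an unadjusted p under 0.05, in old against young rTreg cells, beside 1833 genes higher and 1823 lower. The median of the 12 was −0.14 between kTreg and aTreg cells. In kTreg against aTreg cells over both ages, nuclear genes of complexes II to V had a median of −0.18 with 4 of 47 (8.51%) lower at an adjusted p below 0.05, and mitochondrial ribosomal proteins had −0.31 with 21 of 83 (25.3%) lower, beside 6.0% of all genes. With the length skew as a covariate the medians were 0.03 with 3 lower and 1 higher, and −0.15 with 16 lower and 1 higher. Over all 16630 genes, 1166 were lower and 995 higher in that fit. In that fit 1 of the other assembly factors was lower (median −0.21), and no gene for the expression of mitochondrial DNA passed (median −0.09). Whether these lists differ from the complex I genes was not tested.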

How the data were processed

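The libraries were made from RNA of sorted spleen cells (RNeasy Micro, SMART-Seq v4 with PCR and no molecular identifiers) and sequenced as paired reads of 150 bases. The study's methods and the submitters' processing notes name HISAT2 2.2.1, SAMtools 1.13, HTSeq 1.99.2, DESeq2 1.44.0 and GRCm39, and the annotation release, strand setting, treatment of multiply mapped reads and design formula are not given in the sources used here. The authors deposited 1 normalized signal per gene and library, read counts divided by a size factor. Whole reads were recovered from these values (tolerance 0.001 of a read) and served only for counts of reads and for the count-based alternatives.

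Names and positions came from GENCODE M39, in which 17353 identifiers were matched and 111 were not. Values were transformed to log2(value + 1), genes with at least 10 in at least 4 libraries were kept (16630 of 17464), and 1 model with 6 groups was fitted with limma 3.58.1 (empirical Bayes with a trend), with Benjamini-Hochberg adjustment over all genes of a comparison. A gene passed the test at an adjusted p below 0.05. Comparisons over both ages average the age-specific ones and give both ages the same weight. Every adjusted p in the results is from limma unless another tool is named. p-values measure the spread between libraries within groups, each library from 1 mouse. The model with 6 groups has no term for the mouse, although the subsets of an age are treated as coming from the same mice. The mouse is a term only in the replicate block fit. Alternatives were edgeR 4.0.16 (quasi-likelihood) and DESeq2 1.42.0 on recovered reads, TMM and equal-total scaling, pseudocounts of 0.5 and 5, a filter at 50 or none, an added fold threshold of 1.5, fits on only the groups compared, the mouse as a replicate block, each of the 24 libraries and 8 mice left out and, added after the data were seen, the length skew as a covariate. The fits ran in R 4.3.3, and the rest in Python 3.11.15 with numpy 2.4.6, pandas 2.3.3 and matplotlib 3.10.9. The fit was tested on simulated data.

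Libraries with the same number within an age were treated as 1 mouse, because the series design gives 4 mice of each age as the source of the subsets. The labels do not say that the number marks the mouse, so counts of mice are counts of such sets. The deviations of same-numbered libraries from their group means correlated at −0.064 to 0.352.

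The members and lists were chosen with earlier results of these data known. Named were all assembly factors and mitochondrially encoded subunits, the core and accessory subunits that passed in any comparison (at most the 10 with the smallest p per class), and the 5 members most like *Ndufaf4*. Genes outside this rule were named after their values were seen. The values of 1 member and of 1 sort marker are not reported here.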

Additional observations from a re-analysis of the deposited data

Results flagged for a closer look

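Of 174 groups of 4 libraries, 12 held a library far from the other 3 by Dixon's gap over the range at the 95% level. Chance flags about 1 in 20 groups. Old rTreg 3 accounts for 7 of the 12. Its length skew was 0.68, against −0.19 to −0.11 in the other old rTreg libraries. Its accessory subunits summed to 80558 normalized counts (42709.5 to 46968 in the others) and its nuclear core subunits to 29143 (20634 to 20952). *Ndufv1* was at 3601, *Ndufs4* at 2731, *Ndufa6* at 2309 and *mt-Nd4l* at 2.78, of which only *mt-Nd4l* was below the other old rTreg libraries.

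Old kTreg 2, with a skew of −0.35, had the lowest sums of its group for nuclear core subunits (16533) and assembly factors (3604). In old aTreg 2, with a skew of 0.60, *Ndufa10* was at 5004, above 3581 to 3783 in the others. *Ndufaf3* was at 628 in young kTreg 2, below 869 to 896 in the others. *mt-Nd2* was at 3689 in old rTreg 1, below 4802 to 4850 in the others. The part of the length skew in these values was not tested library by library.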

How the results depend on the processing

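The calls of *Ndufaf4* and *Ndufa10* between kTreg and aTreg cells, and of *Ndufb6* and *Ndufv1* between kTreg and rTreg cells, all over both ages, held in all 43 alternative fits. The added fold threshold of 1.5 is not among these fits, and *Ndufa10* (1.3-fold) and *Ndufv1* (1.34-fold) do not reach it. The adjusted p of the 4 calls ranged from 8.69e-05 to 0.0288. Other counts of members that passed moved by more than 1.5 times, and the cause was not tested. The filter on low values kept 1 member, *mt-Nd4l* (0 to 8.91), out of the tests. Requiring a fold change above 1.5 as well left 2 members for kTreg against aTreg (of 16630 genes, 687 higher and 542 lower). For kTreg against rTreg over both ages it left 2 (1558 and 1012), and in young mice 2 (1371 and 1258). In old mice it left 0 for kTreg against aTreg (222 and 144) and 1 for aTreg against rTreg (802 and 629). The first of these counts is over both ages. DESeq2 passed 21 for kTreg against rTreg over both ages (of all 17464 genes, 2375 higher and 2039 lower). It passed 8 for kTreg against aTreg in old mice (471 genes higher and 463 lower). For kTreg against rTreg in old mice it passed 1 (1124 higher and 956 lower), and for old against young rTreg 1 (1207 and 574). edgeR passed 1 for aTreg against rTreg in old mice (of 16630 genes, 727 higher and 682 lower). Fits on only the groups compared passed 6 for kTreg against rTreg over both ages, 2 for the same in young mice, 8 for kTreg against aTreg in old mice and 0 for aTreg against rTreg in old mice. Counts over all genes were not kept for these fits or for those with a library or mouse left out. With the mouse as a replicate block, 0 passed for kTreg against aTreg in old mice (315 genes higher and 198 lower). For aTreg against rTreg in old mice 1 passed (1067 genes higher and 862 lower), and no other count moved by more than 1.5 times. With the length skew as a covariate, 3 passed for kTreg against rTreg over both ages, beside 1657 of 16630 genes higher and 1579 lower. The next brackets give genes higher and lower in the same way. For aTreg against rTreg over both ages 1 passed (1270 and 905). In young mice 3 passed for kTreg against aTreg (1011 and 1212) and 3 for kTreg against rTreg (1539 and 1819). In old mice 0 passed for kTreg against aTreg (116 and 99) and 1 for kTreg against rTreg (1022 and 769). For old against young cells 1 passed in rTreg (930 and 705) and 2 in kTreg (305 and 175). The age interaction of kTreg against rTreg passed 1 (434 and 574).

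Leaving out a library or mouse gave 2 to 16 members for kTreg against aTreg over both ages. It was 16 without young kTreg 4, 12 without young mouse 4 and 2 or 3 without any of young aTreg 1, 3 or 4, young kTreg 2, old aTreg 1, 2 or 4, old kTreg 1, 2 or 3, young mice 1 or 3, or old mice 1, 2 or 4. For kTreg against rTreg over both ages it gave 2 to 33. There it was 33 without young mouse 4, 25 without young kTreg 4, 21 without old rTreg 2, 19 without young rTreg 4 and 17 without old rTreg 1, and 2 to 7 without young rTreg 1 or 3, young kTreg 1, 2 or 3, old rTreg 3, old kTreg 1 or 2, young mice 1, 2 or 3, or old mice 1, 3 or 4. In young mice kTreg against rTreg gave 1 to 19 (19 without young mouse 4, 16 without young kTreg 4, 11 without old rTreg 3, and 1 or 3 without young rTreg 1 or 3, young kTreg 2 or 3, or young mice 1, 2 or 3). kTreg against aTreg gave 0 to 1 in young mice (0 without young aTreg 1 or 3, young kTreg 2, or young mice 1, 2 or 3). In old mice it gave 0 to 3 (3 without young kTreg 4, 2 without old rTreg 3, old aTreg 3 or old mouse 3, and 0 without young aTreg 3, young kTreg 3, old aTreg 1 or 2, any old kTreg library, young mice 1 or 3, or old mice 1, 2 or 4). aTreg against rTreg in old mice gave 0 to 2 (0 without old rTreg 4, old aTreg 1, 2 or 4, young mouse 1 or old mouse 4). kTreg against rTreg in old mice gave 0 to 2, with 2 without young kTreg 4, old rTreg 1 or young mouse 4. Old against young rTreg gave 0 to 2, with 2 without young kTreg 4, old rTreg 3 or young mouse 4. The age interaction of aTreg against rTreg gave 0 to 1, with 1 without old mouse 3.

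Members near 0 that did not pass changed sign in some settings. Between kTreg and aTreg cells, *Ndufaf1* was 0.013 by edgeR, 0.027 by DESeq2 and 0.080 with the length skew, *Ndufaf5* was 0.012 by DESeq2 and 0.20 with the length skew, and *Ndufaf7* was −0.0019 under TMM scaling. Between kTreg and rTreg cells, *Ndufaf2* was 0.16, *Ndufaf3* 0.031, *Ndufaf6* 0.0029 and *Ndufaf7* 0.012 with the length skew, and *mt-Nd5* was 0.0038 with equal totals. With each library or mouse left out, *Ndufaf1* ran from −0.15 to 0.072, *Ndufaf5* from −0.28 to 0.070 and *Ndufaf7* from −0.043 to 0.056 between kTreg and aTreg cells, and *Ndufaf5* from −0.10 to 0.27 and *mt-Nd5* from −0.14 to 0.11 between kTreg and rTreg cells.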
